A study of Macaca fascicularis with 10 samples.

Results

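Early-passage embryonic stem cells (ESCs) of the cynomolgus monkey, Macaca fascicularis, were set against later-passage ESCs on 8 of the series' 10 arrays. The arrays were chosen by the passage in the labels alone. Side A held the 3 arrays at passage 4, and side B held the 5 arrays at passages 7 to 12. Each side contained both ESC types of the study. The first type, called PG here, is labelled haploid and comes from parthenogenic blastocysts, that is, from eggs activated without sperm. The other, called ICSI here, is labelled diploid and comes from blastocysts made by intracytoplasmic sperm injection. Within PG, 1 array of the line MPH2 at passage 4 was compared with 4 arrays of the line MPH1 at passages 7, 8, 9 and 11. Within ICSI, 1 array each of the lines MES2 and MES3 at passage 4 was compared with 1 array of the line MES1 at passage 12. The same growth protocol is attached to all 8 arrays; its wording covers the haploid cells, kept on feeder cells with Y27635 and Thiazovivin in the medium, and the labels do not name the feeder species. Female somatic fibroblasts, on the remaining 2 arrays of the study, serve here as a marker check. The MPH1 arrays share a line name in their titles but carry a different code for passages 8 and 11 than for passages 7 and 9, and the title was used. None of the 5 lines was sampled on both sides, so line and passage cannot be told apart in any value given here. The labels do not say whether the MPH1 arrays were separate cultures, and p-values therefore measure the spread between these samples, which may be technical.

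Pluripotent stem cells are held undifferentiated by a network of transcription factors led by POU5F1, SOX2 and NANOG, and primate ESCs depend on FGF and activin signals. New lines are expanded from an outgrowth of the inner cell mass. A culture may hold differentiated or feeder cells beside the stem cells, in proportions that vary from one culture to the next. In the bulk RNA measured here, fewer cells of a type and less RNA per cell cannot be told apart.

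Values are MAS5 signals, a linear measure of probe set brightness in arbitrary units, scaled to the same trimmed mean of 500 on every array. All 8 arrays carried the RNA of pluripotent cells, with a mean log2 signal of the core pluripotency list between 11.1 and 11.9, against 5.66 and 5.97 on the study's fibroblast arrays. Array medians ran from 76.8 to 95.5 at passage 4 and from 77.9 to 132.7 at the later passages. The 18 hybridisation spike-in probe sets were brightest on MPH1 P11 and MES1 P12, at mean log2 signals of 13.6 and 13.3, against 12.1 to 12.8 on the other ESC arrays. Counts without these 2 arrays are given with the count over all 8. Log2 profiles over the 28646 probe sets tested correlated at 0.94 between MES2 P4 and MES3 P4, and at 0.901 to 0.948 between MPH1 arrays. Between arrays of 1 origin that differed in side the range was 0.871 to 0.927, and between origins it was 0.868 to 0.928.

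With origin in the model, SOHLH2 was the gene called, higher at passage 4, and a probe set of NFKBIZ was called lower. SOHLH2 encodes a basic helix-loop-helix transcription factor of early germ cells. Its signal was 3486 on MPH2 P4 and 1460 and 1424 on MES2 and MES3 P4. On the later arrays it was 372, 504, 287 and 627 on MPH1 P7, P8, P9 and P11, and 212 on MES1 P12. The lowest passage 4 value thus exceeded the highest later value, across origins as well as within them. The difference was 2.90 ± 0.311 (log2, SE, 3 against 5 arrays), or 7.48-fold, with an adjusted p of 0.0397 (limma, Benjamini-Hochberg over all probe sets). It was 3.02 within PG and 2.77 within ICSI. A second probe set of SOHLH2, whose name suffix marks probes shared between transcripts, differed by 0.25, and with the mean of both probe sets the limma adjusted p was 0.301. Leaving out MPH1 P7, P8 or P11, or MES2 P4 or MES3 P4, raised the adjusted p to between 0.0798 and 0.221, with log2 differences of 2.87 to 2.98.

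NFKBIZ encodes a nuclear IkB protein that steers NF-kB target genes. The called probe set had signals of 186 on MPH2 P4 and 406 and 675 on MES2 and MES3 P4. The later signals were 869, 1081, 1084 and 1210.2 on MPH1 P7, P8, P9 and P11, and 5097 on MES1 P12, so the sides did not overlap. The difference was -2.88 ± 0.273 (log2, SE), with a limma adjusted p of 0.0257. The other NFKBIZ probe set, which was brighter on 7 of the 8 arrays, gave a difference of 0.96 and no call, so the direction of the gene is not settled by these probe sets. Their average gave -0.96 and an adjusted p of 0.334. Without MPH1 P8, MPH1 P11 or MES3 P4 the adjusted p of the called probe set was 0.123, 0.0798 and 0.0976.

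These were the 2 probe sets called among 28646, or 0.00698%, while 2838 had an unadjusted limma p under 0.05. Leaving out 1 MPH1 array or 1 of MES2 P4 and MES3 P4 gave 0 to 2 calls. Without MES1 P12, when the PG contrast alone remains, 539 probe sets were called, and without MPH2 P4, when the ICSI contrast alone remains, 174. Without MPH1 P11 and MES1 P12, which also leaves PG alone, 499 were called. Fits with each line averaged first, without the origin term or without a variance trend called 0. With passage as a number 2 other probe sets were called, and the adjusted p was 0.143 for SOHLH2 and 0.0746 for the NFKBIZ probe set. Over all genes the median log2 difference was -0.01, with the middle of the distribution between -0.333 and 0.233 (quartiles). A count by overlap alone uses no model. In 1094 genes of 10505 (10.4%) every passage 4 array lay above every later array of the same origin, and in 1203 genes (11.5%) below. In 2078 genes (19.8%) the passage 4 arrays lay outside the later arrays in both origins but on opposite sides.

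**Figure D1:**
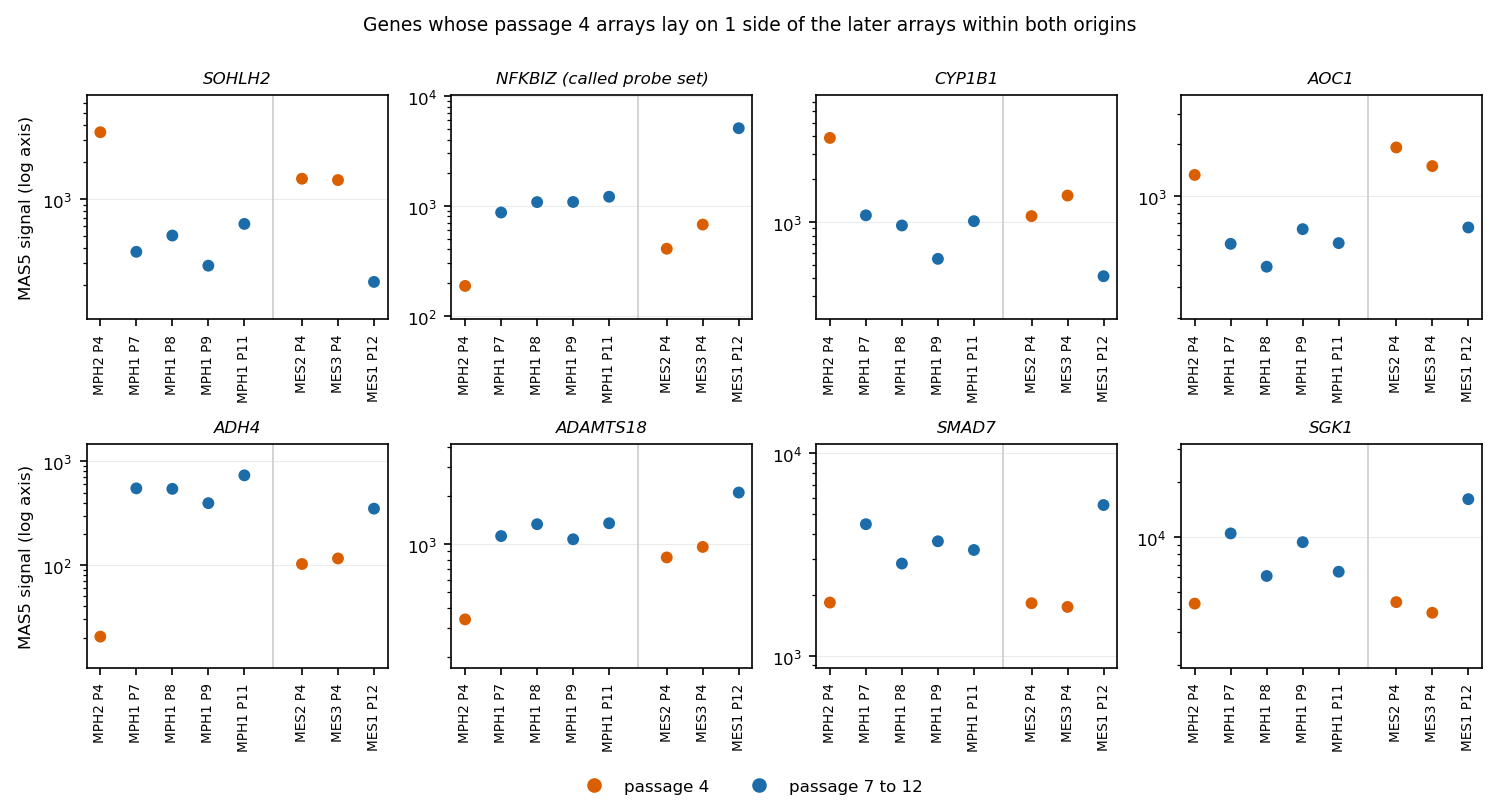
MAS5 signal (log axis) of 8 genes on each of the 8 arrays, PG arrays left and ICSI arrays right of the grey line, passage 4 in orange and passages 7 to 12 in blue; each point is 1 array. SOHLH2, CYP1B1 and AOC1 have their passage 4 points above the later points of the same origin, and the NFKBIZ probe set, ADH4, ADAMTS18, SMAD7 and SGK1 have them below.

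The 11 further genes named as higher on every passage 4 array of both origins had limma adjusted p-values of 0.273 to 0.358 and were not called. CYP1B1, a cytochrome P450 induced through the aryl hydrocarbon receptor, had signals of 3902 on MPH2 P4 against 549 to 1112 on MPH1, and of 1098 and 1533 on MES2 and MES3 P4 against 414 on MES1 P12. Its difference was 1.91 ± 0.31 (log2, SE), its 3 probe sets gave 1.91, 1.88 and 2.02, and its PG contrast was called (2.16, adjusted p = 0.0195). AOC1, the histamine-degrading diamine oxidase, had signals of 1329 on MPH2 P4 against 393 to 648 on MPH1, and 1914 and 1495 on MES2 and MES3 P4 against 662 on MES1 P12. AOC1 had log2 differences of 1.35 within PG and 1.35 within ICSI, and was called within PG (adjusted p = 0.0449).

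LOC695854 had the widest difference of these 11 genes, at 2.83 ± 0.487 (log2, SE). Its signal was 10923 on MPH2 P4 against 533 to 779 on MPH1, and 5466 and 12075 on MES2 and MES3 P4 against 2825 on MES1 P12. CADPS2, which primes dense-core vesicles for secretion, stood at 825 on MPH2 P4 against 101 to 177 on MPH1, and at 1605 and 1642 on MES2 and MES3 P4 against 691 on MES1 P12. Within PG both were called, LOC695854 at 4.02 (adjusted p = 0.00206) and CADPS2 at 2.70 (adjusted p = 0.00614). The remaining genes had log2 differences of 1.73 for DUSP22, a dual-specificity phosphatase, 1.48 for KIF21A, a kinesin, 1.54 for HOOK1, a microtubule adaptor, and 1.35 for GZMA, a protease of cytotoxic lymphocytes with close paralogs. They were 0.93 for SFRP4, a secreted frizzled-related protein, 1.45 for ERI2, an exonuclease, and 1.44 for LOC699539. The other probe sets of HOOK1, KIF21A and SFRP4 gave log2 differences between -0.467 and 0.292, so these genes rest on 1 probe set each.

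The 12 genes named as lower on every passage 4 array of both origins were picked by smallest p among such genes. They had limma adjusted p-values of 0.202 to 0.358, and 0 were called. ADAMTS18, a secreted metalloprotease, had signals of 340.3 on MPH2 P4 against 1070.3 to 1346 on MPH1, and of 826 and 959 on MES2 and MES3 P4 against 2088 on MES1 P12. Its difference was -1.54 ± 0.215 (log2, SE), and a second ADAMTS18 probe set gave -1.81. ADH4, an alcohol dehydrogenase of a family with close paralogs, had a signal of 20.5 on MPH2 P4, under the median of that array, against 395 to 733 on MPH1. With signals at or under the array median raised to it, ADH4 was at least 6.95-fold lower on MPH2 P4. The PG contrast was called on the unraised signals. On MES2 and MES3 P4 it was 102 and 116, against 349.9 on MES1 P12.

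SMAD7, an inhibitor of TGF-beta and activin signalling, had signals of 1833 on MPH2 P4 against 2858 to 4471 on MPH1, and 1819.6 and 1745 on MES2 and MES3 P4 against 5559.6 on MES1 P12. SGK1, a kinase induced by serum and glucocorticoids, was 4304 on MPH2 P4 against 6095 to 10417 on MPH1, and 4386 and 3835 on MES2 and MES3 P4 against 16031 on MES1 P12. The differences were -1.28 ± 0.227 for SMAD7 and -1.39 ± 0.294 for SGK1 (log2, SE), and both were called within ICSI (adjusted p = 0.0307 and 0.0324). MAMU-E, a non-classical class I histocompatibility gene of a multigene family, differed by -2.05, but within PG its other probe sets gave 1.17 and 0.31 against -2.56, so its direction is uncertain. Log2 differences were -1.62 for TSHZ3, a zinc finger homeobox gene, -1.38 for VTCN1, the immune checkpoint ligand B7-H4, and -1.53 for ZNF233, a zinc finger protein. They were -0.94 for ERMARD, -1.002 for FAM89A and -1.57 for LOC694783. RNF208, a ring finger protein, was under the median of MPH2 P4 at 19.6, and in PG at least 2.37-fold lower there. The other probe sets of ZNF233 gave -0.276 to 0.581 and that of FAM89A gave -0.02.

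Within PG, 504 of 28646 probe sets were called (1.76%), 239 higher and 265 lower on MPH2 P4, and of 10505 genes 196 were called (1.87%), 95 higher and 101 lower. The fitted correlation between arrays of a line was -0.12 in this model, which gave all adjusted p-values within and between origins. With this negative value the block raised the counts of calls rather than lowering them. It therefore gave no protection against likeness between arrays of a line. Without a block, or with the description code as block, 240 probe sets were called, and with each line averaged first 4. Apart from HEY1 and GLOD4, the genes named next for PG were chosen after their values were seen. HEY1, a repressor induced by Notch and BMP, was 2619 on MPH2 P4 against 131 to 272 on MPH1, a difference of 3.77 ± 0.402 (log2, SE, adjusted p = 0.0041). SEMA3C, a secreted guidance semaphorin, was 2385 against 245 to 446 (2.99, adjusted p = 0.00691). In both genes the MPH2 P4 signal lay far above every MPH1 array. EFEMP1, a fibulin of the extracellular matrix, was 2174 against 106 to 348 (3.35, adjusted p = 0.0158). FBN2, a fibrillin prominent in fetal tissue, was 2125 against 168 to 412 (2.96, adjusted p = 0.00988). GGCT, gamma-glutamylcyclotransferase, was 1688 against 215 to 283 (2.72, adjusted p = 0.00257).

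GLOD4, a glyoxalase domain protein, had the smallest adjusted p within PG. It was 313 on MPH2 P4 and 2647 to 3019 on MPH1, a difference of -3.20 ± 0.182 (log2, SE, limma adjusted p = 0.000396). On the ICSI arrays GLOD4 was 1878 and 1634 at passage 4 and 1399 at passage 12, all between the MPH2 and MPH1 values. LOC699676 was 218 on MPH2 P4 and 4031 to 14684 on MPH1 (-5.43, adjusted p = 0.00353). In these fits the lone MPH2 array is assumed to vary like the other groups. Without MPH1 P8, MES2 P4 or MES3 P4 the probe sets called within PG numbered 250, 133 and 142. With the fibroblast and feeder level as a covariate 0 were called, while the log2 difference was -3.149 for GLOD4 within PG, 3.935 for HEY1 within PG and 2.639 for GGCT within PG.

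Within ICSI, 196 probe sets were called (0.684%), 99 higher and 97 lower at passage 4 than on MES1 P12, and 75 genes (0.714%), 34 higher and 41 lower. Without a block 109 probe sets were called, and with the description code as block 101. The lone MES1 array is assumed here to vary like the other groups. Apart from SMC1A, the genes named next for ICSI were also chosen after their values were seen. FIG4, a phosphoinositide phosphatase, was 283 and 253 on MES2 and MES3 P4 and 2925 on MES1 P12, a difference of -3.45 ± 0.257 (log2, SE, adjusted p = 0.000824). SMC1A, an X-linked cohesin subunit, was 5412 and 4797 at passage 4 and 860.0 on MES1 P12 (2.57, adjusted p = 0.000824), while SMC1A was 8002 on MPH2 P4 and 8621 to 10550 on MPH1. FAIM, an inhibitor of apoptosis, was 888 and 1099 at passage 4 and 126 on MES1 P12 (2.97, adjusted p = 0.00359). PLEK2, a pleckstrin family protein, was 409 and 416 at passage 4 and 18.1 on MES1 P12, under the median of that array. It was thus at least 3.51-fold higher at passage 4.

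CHP2, a calcineurin B-like protein, was 140.1 and 216 on MES2 and MES3 P4 and 6627 on MES1 P12 (-5.25, limma adjusted p = 0.0351). COL10A1, the collagen of hypertrophic cartilage, was under the array medians on MES2 and MES3 P4 and 1421 on MES1 P12. It was thus at least 16.6-fold lower at passage 4. For both genes the signal on MES1 P12 was the highest of the 8 arrays. MES1 P12 also carried the highest fibroblast and feeder level of the ESC arrays, as given with that list. With that level as a covariate 0 probe sets were called within ICSI. The log2 difference was then 2.436 for FAIM within ICSI, 2.247 for SMC1A within ICSI and -2.574 for CHP2 within ICSI. Without MPH1 P8, MPH1 P11, MES2 P4 or MES3 P4 the count was 87, 455, 19 and 23.

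**Figure D2:**
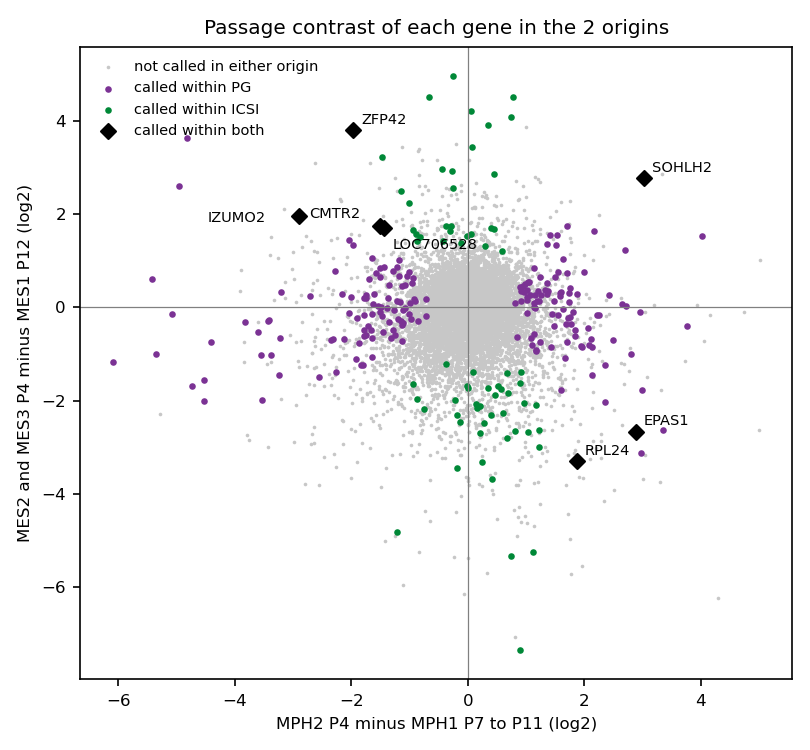
Log2 difference of 10505 genes, passage 4 minus later, within PG (horizontal axis) and within ICSI (vertical axis); grey points are genes called in neither origin, purple and green points genes called in 1 origin, and labelled diamonds the 7 genes called in both. SOHLH2 is the diamond in the upper right quadrant, and the other 6 lie in the quadrants of opposite sign.

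The PG and ICSI contrasts share no array, and their differences were nearly uncorrelated. Over 10505 genes, which are not independent replicates, the Pearson correlation was 0.0011 and the Spearman correlation 0.044, and 52% of genes had the same sign in both. Of the 7 genes called in both origins SOHLH2 had the same sign and the other 6 had opposite signs. By the test of the difference itself, the contrast differed between origins in 426 probe sets (1.49%) and in 181 genes (1.72%). Each origin has 1 array on 1 side, MPH2 P4 and MES1 P12, so a deviation of that array or line cannot be told apart from a difference between origins. That count of probe sets was 236 without a block, 233 with the description code as block and 135 with lines averaged first. It was 219, 49 and 97 without MPH1 P8, MES2 P4 and MES3 P4, and 0 with the fibroblast and feeder level as a covariate. With that covariate the GLOD4 difference between origins was -3.276, against -3.524 without it.

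ZFP42, the pluripotency marker REX1, had the smallest p among the genes in that test. It was 361 on MPH2 P4 against 1159 to 1859.6 on MPH1, and 1369 and 1222 on MES2 and MES3 P4 against 92.8 on MES1 P12, under the median of that array. The low arrays were thus MPH2 P4 in one origin and MES1 P12 in the other. The limma PG difference was -1.97 (log2), and the ICSI passage 4 arrays were at least 11.03-fold higher than MES1 P12. The contrasts differed by -5.77 ± 0.4 (log2, SE, adjusted p = 0.000636), and by -5.43 with signals raised to the array median. The fibroblast and feeder level was 12.6 on MES1 P12, above the other ESC arrays, and 11.4 on MPH2 P4, inside the MPH1 range of 9.65 to 11.6. With that level as a covariate the ZFP42 difference between origins was -4.826, in a fit where this test called no probe set of any gene.

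EPAS1, the hypoxia-inducible factor HIF-2 alpha, ran the other way, at 2343 on MPH2 P4 against 233 to 410.0 on MPH1, and 219 and 237 on MES2 and MES3 P4 against 1439.8 on MES1 P12. The contrasts of EPAS1 differed by 5.54 ± 0.463 (log2, SE, adjusted p = 0.00182), although its second probe set gave -0.603 within PG and -0.961 within ICSI. IZUMO2, of the sperm-egg fusion family, was 94.1 on MPH2 P4 against 566 to 884 on MPH1, and 397 and 353 against 96.2 within ICSI, the last under the median of MES1 P12. Within ICSI IZUMO2 was thus at least 3.19-fold higher at passage 4, and the contrasts differed with an adjusted p of 0.00304. GLOD4 and SMC1A, with values above, were the other genes among the 5 of smallest p, with differences between origins of -3.52 (adjusted p = 0.00128) and -2.83 (adjusted p = 0.00272). RPL24, a ribosomal protein with processed copies that a probe set may also read, was 848 on MPH2 P4 against 164 to 299.6 on MPH1, and 151 and 132 against 1385 within ICSI (5.16, adjusted p = 0.0048). CMTR2, an mRNA cap methyltransferase, and LOC706528 complete the genes called in both origins. Each was lower on MPH2 P4 (-1.51 and -1.43) and higher on MES2 and MES3 P4 (1.74 and 1.70). A second CMTR2 probe set gave 0.197 within PG and 0.356 within ICSI, so the opposite signs of this gene rest on 1 probe set.

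**Figure D3:**
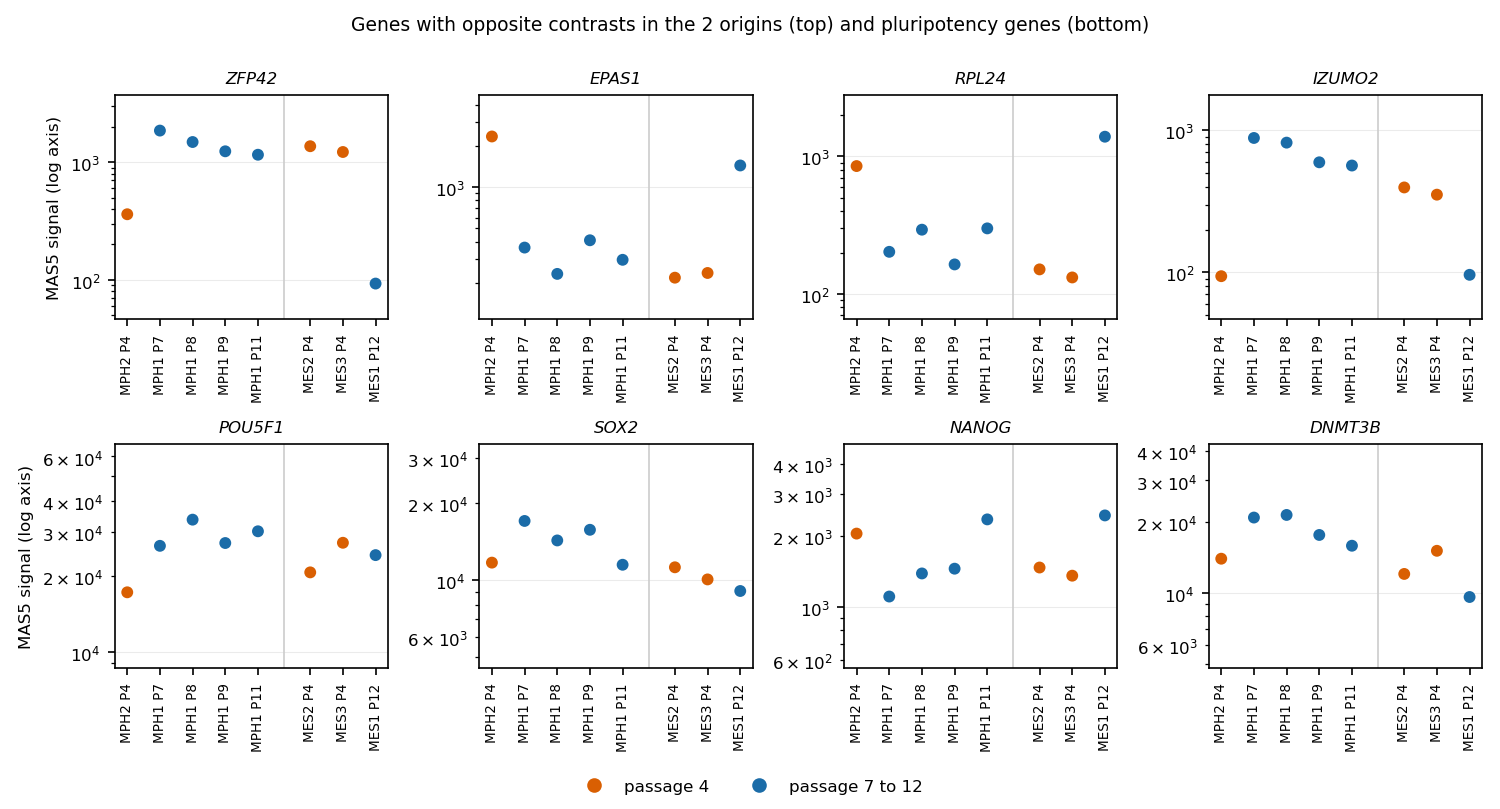
MAS5 signal (log axis) on each array of 4 genes with opposite contrasts in PG and ICSI (top) and of 4 pluripotency genes (bottom), passage 4 in orange and later passages in blue. ZFP42 is lowest on MES1 P12 and next lowest on MPH2 P4, while the passage 4 points of SOX2, NANOG and DNMT3B lie within the range of the later points over both origins.

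Over the 8 arrays 0 of the 11 measured core pluripotency genes were called by limma and 1 had an unadjusted p under 0.05. The list median was -0.09, beside -0.01 over all genes. It was -0.43 within PG, with 2 of the 11 genes positive, and 0.49 within ICSI, with 7 positive. POU5F1 was 17260 on MPH2 P4 and 26436 to 33612 on MPH1, and 20723 and 27189 on MES2 and MES3 P4 and 24278 on MES1 P12. MPH2 P4 was the lowest array, and the ICSI sides overlapped (-0.41 ± 0.199, log2, SE, adjusted p = 0.523). SOX2 differed by -0.05 ± 0.199, NANOG by -0.15 ± 0.338 and DNMT3B, a de novo DNA methyltransferase, by 0.01 ± 0.226 (log2, SE). None of the 3 was called, and their signs turned under other scalings or fits. LIN28B, an inhibitor of let-7 maturation, was 9325 on MPH2 P4 against 6542 to 9036 on MPH1, and 8326 and 9005 on MES2 and MES3 P4 against 5197 on MES1 P12. PRDM14, a repressor of differentiation, was 1636 against 1822 to 4210.1 within PG and 1631 and 1679.8 against 2313 within ICSI. LIN28B thus lay higher and PRDM14 lower on the passage 4 arrays of both origins, with log2 differences of 0.47 and -0.63 that did not pass the test. Of the 11 genes 1 lay above and 1 below in this way, beside 10.4% and 11.5% of all genes. A second LIN28B probe set gave -0.01.

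Genes tied to the naive state, that of the preimplantation epiblast, had a median of -1.26 over 5 measured genes, of which 0 were called over the 8 arrays and 2 had an unadjusted limma p under 0.05. KLF4, a reprogramming factor, was 1265 on MPH2 P4 and 934 and 1889 on MES2 and MES3 P4. It was 1626, 1240.2, 2460.2 and 5011 on MPH1 P7, P8, P9 and P11, and 7651 on MES1 P12 (-1.64 ± 0.571, log2, SE, adjusted p = 0.445). MPH2 P4 lay inside the MPH1 range, and the highest signals were those of MPH1 P11 and MES1 P12, the arrays with the brightest spike-ins. NR5A2, a nuclear receptor that activates POU5F1, was called lower within PG, at 208 on MPH2 P4 against 422 to 627 on MPH1 (-1.38). NR5A2 within PG lost its call in 15 of 24 alternatives, and its other probe sets gave -0.94 and -1.94 there without a call. TBX3, a T-box repressor, was called lower within ICSI, at 189.7 and 178 against 2351 (-3.68, adjusted p = 0.0474). KLF5, another Kruppel-like factor, was 6385 and 3566 against 1427 there and 1308 against 1124 to 2672 within PG. FGF4, a growth factor of the epiblast, was under the array median on all 3 passage 4 arrays. It was 96.8 to 370.1 on MPH1, and on MES1 P12 it was 89.0, also under the median of that array. The list median of -1.26 is the FGF4 difference and so is not exact. With signals raised to the array median FGF4 differed by -0.86. Under the alternatives the list median ran from -1.41 to -0.431.

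The 9 measured primed-state genes, those of the postimplantation epiblast, had a median of -0.04, with 0 called over the 8 arrays and 2 at an unadjusted limma p under 0.05. SFRP2, a secreted frizzled-related protein, was called higher within PG, at 6888 on MPH2 P4 against 2132 to 3192 on MPH1 (1.36, adjusted p = 0.037), and was 4420.4 and 2931 against 2524 within ICSI. ZIC2, a zinc finger factor, was 4221 against 5089 to 12194 within PG and 11559 and 9450 against 15735 within ICSI (-0.78). The passage 4 arrays thus lay on 1 side within both origins for SFRP2 (above) and ZIC2 (below). Of the 9 genes 2 lay above and 1 below in this way, beside 10.4% and 11.5% of all genes.

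**Figure D4:**
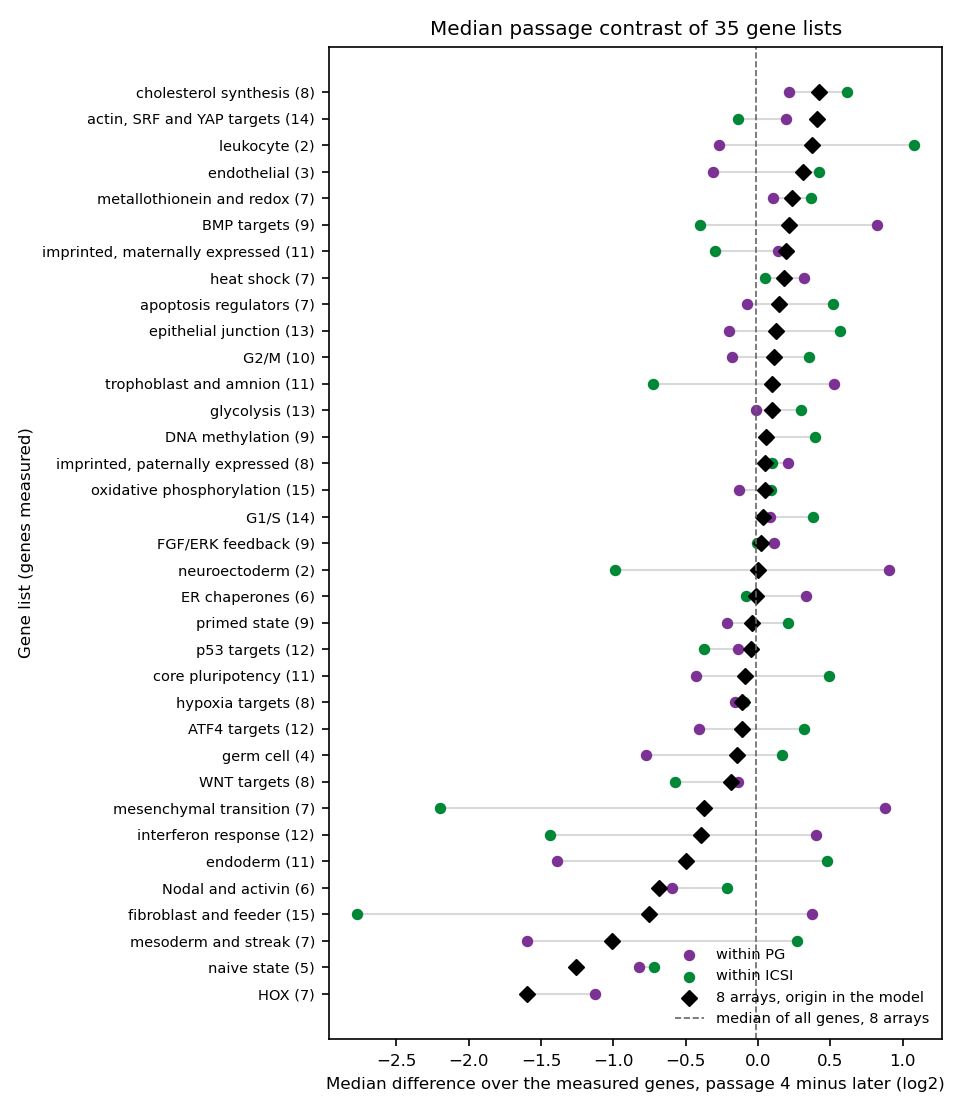
Median log2 difference, passage 4 minus later, over the measured genes of 35 lists (number measured in brackets), with purple and green points for PG and ICSI, black diamonds for the model of all 8 arrays, and a dashed line at the median of all genes. HOX and naive-state genes lie at the low end, with medians of -1.60 and -1.26, and cholesterol synthesis at the high end with 0.42. The naive-state median is the FGF4 value, which rests on passage 4 signals under the array median.

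Of 312 measured genes in the 35 lists 0 were called over the 8 arrays by limma, and 33 had an unadjusted p under 0.05, beside 1090 of 10505 genes. Within PG, 5 listed genes were called higher and 2 lower, beside 1.87% of all genes called, and within ICSI 4 higher and 6 lower, beside 0.714%. In 23 listed genes every passage 4 array lay above the later arrays of its origin and in 22 below, beside 10.4% and 11.5% of all genes.

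HOX genes, the positional regulators of the body axis, had the lowest list median, -1.60 over 7 genes, with 0 called over the 8 arrays and 3 at an unadjusted limma p under 0.05. HOXA5, HOXA10, HOXB7 and HOXC6 were lower on every passage 4 array than on the later arrays of the same origin, as were 11.5% of all genes. HOXC6 was 95.5 on MPH2 P4 against 272, 390.4, 416 and 1056 on MPH1 P7, P8, P9 and P11, and 154 and 384 on MES2 and MES3 P4 against 668 on MES1 P12 (-1.89 ± 0.551, log2, SE, adjusted p = 0.418). HOXA5 was 71.7 against 109 to 515 within PG, and 66.8 and 109 against 395 within ICSI, with MPH2 P4 and MES2 P4 under their array medians. HOXD1 had a positive difference of 0.26, with MPH2 P4 below MPH1 and MES2 and MES3 P4 above MES1 P12. The mean HOX level was highest on MPH1 P11 and MES1 P12, at log2 8.46 and 8.07, and lowest on MES2 P4 and MPH2 P4, at 6.19 and 6.23. Fibroblasts also express HOX genes, and the fibroblast and feeder level on those arrays was 11.5, 12.6, 9.41 and 11.4. On MPH1 P9 the fibroblast and feeder level was 11.6, the highest of the MPH1 arrays, and the HOX level was 7.45. With the fibroblast and feeder level as a covariate the HOX list median was -1.06, and without MPH1 P11 and MES1 P12 it was -0.75. Whether the feeder level bears on the HOX genes was not tested.

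The fibroblast and feeder list covers 15 measured genes such as collagens, lumican and decorin. Its mean log2 level was 11.4 on MPH2 P4, 9.41 on MES2 P4 and 10.8 on MES3 P4. It was 9.65, 10.2, 11.6 and 11.5 on MPH1 P7, P8, P9 and P11, and 12.6 on MES1 P12, against 12.8 and 12.9 on the fibroblast arrays. The sides overlapped within PG and not within ICSI. DCN, decorin, was 2577 on MPH2 P4 and 367, 1149, 16850 and 7552 on MPH1 P7, P8, P9 and P11, and 182 and 1713 on MES2 and MES3 P4 and 39481 on MES1 P12. COL1A1, the main chain of type I collagen, was 424 against 163 to 1322 within PG, and 143 and 502 against 1825 within ICSI (-1.21 ± 0.958, log2, SE, adjusted p = 0.683). The list level differed by 0.634 within PG, -2.48 within ICSI and -0.923 over both, and an exact two-sided permutation of the sides within origins gave p = 0.4 (15 arrangements, smallest possible p 0.0667). Of the 15 genes 0 were called by limma over the 8 arrays, with 0 at an unadjusted p under 0.05. Within PG and within ICSI 0 were called and 2 and 11 had an unadjusted p under 0.05. Of 3 endothelial and 2 leukocyte genes measured 0 were called either, and 0 had an unadjusted p under 0.05.

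**Figure D5:**
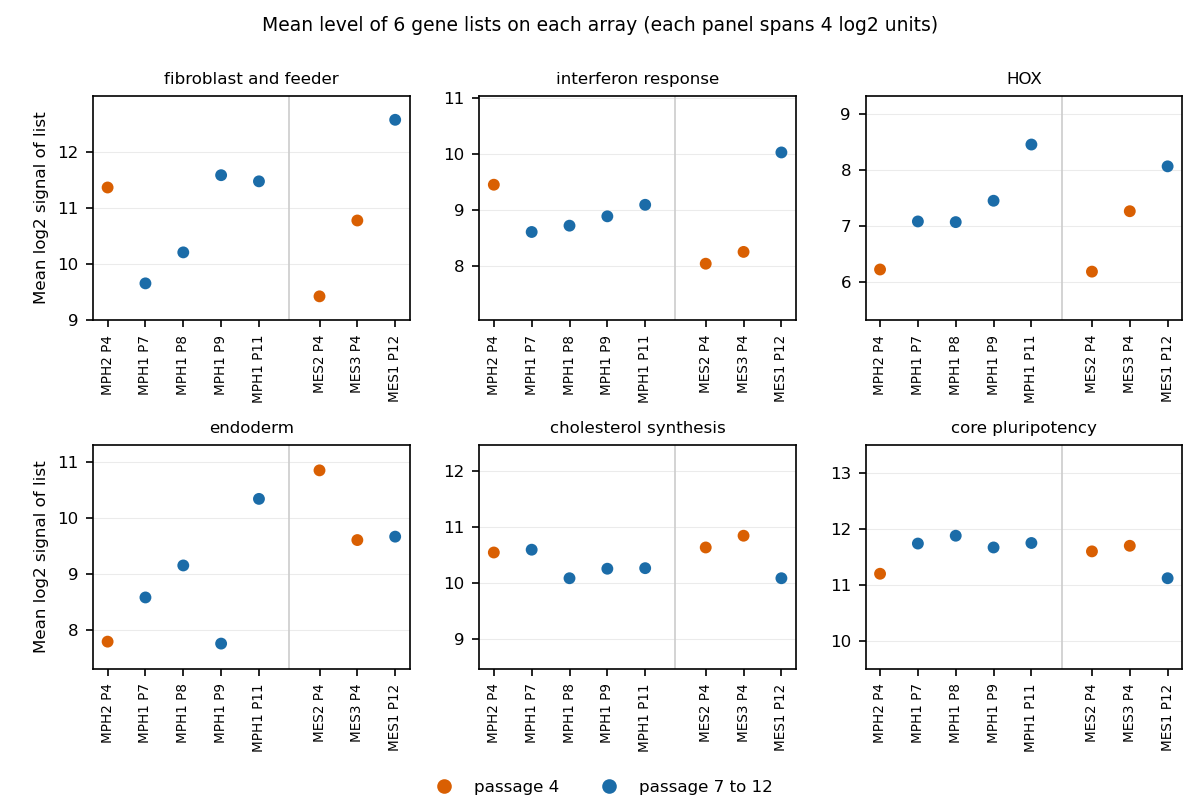
Mean log2 signal over the measured genes of 6 lists on each array, each panel spanning 4 log2 units, passage 4 in orange and later passages in blue. The fibroblast and feeder level is highest on MES1 P12 (12.6) and lowest on MES2 P4 (9.41), and the endoderm level is lowest on MPH1 P9 (7.75) and MPH2 P4 (7.79).

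Among interferon-response genes, 4 of 12 measured were called lower at passage 4 within ICSI, beside 0.714% of all genes called there. ISG15, a ubiquitin-like interferon product, was 392 and 528 on MES2 and MES3 P4 and 2238 on MES1 P12 (-2.30 ± 0.321, log2, SE, adjusted p = 0.0213). B2M, the light chain of class I histocompatibility molecules, was 15086 and 19046 against 56253 (-1.73, adjusted p = 0.026). PSMB8, an immunoproteasome subunit, was 81.9 and 153 against 896 (8.001-fold lower, adjusted p = 0.033). IFIT1, an antiviral RNA-binding protein, was under the array medians on MES2 and MES3 P4 and 1040.3 on MES1 P12. It was thus at least 12.2-fold lower at passage 4. MES1 P12 was the highest of the 8 arrays for all 4 genes. A second B2M probe set gave log2 differences of -0.41 within ICSI and -0.03 within PG, and was not called.

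Within PG 0 interferon-response genes were called by limma and 4 had an unadjusted p under 0.05. On MPH2 P4 ISG15 was 711 against 407 to 632 on MPH1, B2M 24342 against 18934 to 29047, and PSMB8 531 against 168 to 307. The test of the difference between origins called 6 of the 12 genes, beside 1.72% of all genes. The log2 differences were 1.73 for B2M, 2.61 for TAP1, 2.70 for ISG15 and 4.22 for PSMB8. With signals raised to the array median, since both had arrays under it, the IFIT3 difference between origins was 3.354 and the IFIT1 difference between origins 3.753. The fibroblast and feeder level moved with these genes within ICSI, 9.41 and 10.8 against 12.6. With it as a covariate the log2 difference was -1.869 for ISG15 within ICSI and -1.102 for B2M within ICSI. It was -2.156 for PSMB8 within ICSI and -5.787 for IFIT1 within ICSI. That fit called no probe set of any gene within ICSI, so the loss of these calls is not particular to the 4 genes. Whether the feeder level bears on them was not tested.

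Endoderm and primitive streak genes varied between arrays of 1 side. CER1, a Nodal and BMP antagonist of the anterior endoderm, was 48.0 on MPH2 P4 and 268, 1573, 95.8 and 6310.3 on MPH1 P7, P8, P9 and P11. It was 7475 and 1867 on MES2 and MES3 P4 and 2129 on MES1 P12 (-1.64 ± 1.6, log2, SE, adjusted p = 0.75). GSC, a homeobox gene of the organizer, was likewise 94.8 on MPH2 P4, 109.6 to 2831 on MPH1, 5070 and 1274 on MES2 and MES3 P4, and 2103 on MES1 P12. Both genes thus spanned a wide range among the MPH1 arrays alone and were lowest on MPH2 P4. Over the 8 arrays 0 of 11 endoderm, 0 of 7 mesoderm and streak and 0 of 2 neuroectoderm genes were called by limma, and 0 had an unadjusted p under 0.05.

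In the trophoblast and amnion list GATA3, a factor of both tissues, was called higher within PG, at 1519 on MPH2 P4 against 167 to 434 on MPH1 (2.36, adjusted p = 0.0419), and was 311 and 217 against 612 within ICSI. VTCN1 of the same list had signals of 543 against 1137 to 2208 within PG, and 113 and 102 against 254 within ICSI, so these genes ran in opposite directions within PG. Over the 8 arrays 0 of the 11 measured genes were called by limma and 1 had an unadjusted p under 0.05. Of 4 germ cell genes, a list without SOHLH2, 0 were called and 0 had an unadjusted p under 0.05. PCDH8, a protocadherin, was 2270.1 on MPH2 P4 against 3687 to 16529 on MPH1, and 145 and 145 against 248 within ICSI (-1.34, adjusted p = 0.477).

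Cholesterol synthesis genes had the highest list median, 0.42, with positive differences in 7 of 8 measured genes, 0 called over the 8 arrays by limma and 2 at an unadjusted p under 0.05. FDFT1, squalene synthase, was 13150 on MPH2 P4 against 7743 to 10839 on MPH1, and 9365 and 10369 on MES2 and MES3 P4 against 5698 on MES1 P12 (0.67 ± 0.174, log2, SE, adjusted p = 0.369). INSIG1, which retains the sterol sensor in the endoplasmic reticulum, was 1199.6 against 381 to 818 within PG, and 1624 and 2758 against 922 within ICSI (1.09 ± 0.338). FDFT1, INSIG1 and CYP51A1, 3 of the 8 genes, lay higher on every passage 4 array than on the later arrays of the same origin, as did 10.4% of all genes. SQLE, squalene epoxidase, overlapped within PG, at 3089 against 1543 to 4205, and was 3032 and 3500 against 1533 within ICSI.

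Among 13 glycolysis genes the median was 0.09, with 0 called over the 8 arrays by limma and 2 at an unadjusted p under 0.05. SLC2A1, the basal glucose transporter, was 5424 on MPH2 P4 against 1571 to 4032 on MPH1, and 5615 and 7401 on MES2 and MES3 P4 against 2755 on MES1 P12 (1.14). LDHA, lactate dehydrogenase, was 2679 against 1902 to 3264 within PG, which overlap, and 10474 and 21722 against 3386 within ICSI (1.16, adjusted p = 0.453). SLC2A3, another glucose transporter, differed by 0.17. In the hypoxia list CA9, a hypoxia-induced carbonic anhydrase, was called higher within ICSI, at 747 and 647 against 207 (1.75, adjusted p = 0.0255), and was 627 against 724 to 857 within PG. CA9 was the 1 gene called there of 8 measured hypoxia genes, beside 0.714% of all genes. Within ICSI 3 of the 8 had positive differences, with a median of -0.09. Over the 8 arrays 2 were positive, with a median of -0.11. The 15 oxidative phosphorylation genes had a median of 0.05 and the 12 ATF4 targets -0.11.

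In the cell cycle lists, 7 of 14 G1/S genes and 7 of 10 G2/M genes had positive differences, with medians of 0.04 and 0.11, and 0 were called over the 8 arrays by limma, with 3 and 0 at an unadjusted p under 0.05. TYMS, thymidylate synthase, was called higher within PG, at 8005 on MPH2 P4 against 3313 to 4424 on MPH1 (1.02, adjusted p = 0.0323), and was 8344 and 7587 against 6111 within ICSI. TYMS, MCM2, MCM5 and GINS2, 4 of the 14 G1/S genes, lay higher on the passage 4 arrays within both origins, as did 10.4% of all genes. RRM2B, the p53-induced ribonucleotide reductase subunit, was called higher within PG, at 1772 against 766 to 894 (1.08, adjusted p = 0.0456), but RRM2B within PG lost its call in 16 of 24 alternatives, and with its probe sets averaged the difference was 0.1605. CASP8, the initiator caspase of death receptors, was under the array medians on all 3 passage 4 arrays and 135 to 271 on MPH1 and 132 on MES1 P12. PMAIP1, the BH3-only protein NOXA, was 8149 against 13320 to 21896 within PG and 11523 and 12072 against 15645 within ICSI (-0.76). BAK1 ran the other way, at 361.5 against 232 to 327 within PG and 385 and 430 against 228 within ICSI (0.62). Of 7 measured apoptosis regulators 4 had positive differences, with a median of 0.15 and 0 called over the 8 arrays by limma. In 1 of the 7 the passage 4 arrays lay above within both origins and in 2 below, beside 10.4% and 11.5% of all genes.

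In signalling, SMAD7 was the member called within ICSI among the 6 measured Nodal and activin genes, whose median was -0.69, with 0 called over the 8 arrays by limma and 1 at an unadjusted p under 0.05. INHBA, the activin A subunit, was 836 on MPH2 P4, 270.1, 671, 4859.8 and 5709 on MPH1 P7, P8, P9 and P11, 258 and 1677 on MES2 and MES3 P4, and 25075 on MES1 P12. Of 9 BMP targets HEY1 was called within PG. ID1 and ID3, direct BMP targets, were 14854 and 12789 on MPH2 P4, above the MPH1 ranges of 2800.4 to 9612 and 1799.9 to 7177, with PG differences of 1.42 and 1.99 that were not called (adjusted p = 0.203 and 0.107). A second ID3 probe set gave -0.046 within PG. The BMP list median was 0.82 within PG and -0.40 within ICSI. The medians over the 8 arrays were -0.19 for 8 WNT targets, 0.02 for 9 FGF and ERK feedback genes and 0.41 for 14 actin, SRF and YAP targets.

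The epithelial junction genes CLDN7 and OCLN, a claudin and occludin, were called higher at passage 4 within ICSI. CLDN7 was 2353 and 1595 on MES2 and MES3 P4 against 610.2 on MES1 P12 (1.67, adjusted p = 0.0473), and 662 on MPH2 P4 against 1042 to 1490 on MPH1. OCLN was 623 and 563 against 178 within ICSI (1.74, adjusted p = 0.0491) and 244 against 270 to 370.4 within PG. Both genes were thus lowest on MES1 P12 and lower on MPH2 P4 than on any MPH1 array, and the contrast differed between origins by -2.61 for CLDN7 and -2.11 for OCLN (adjusted p = 0.0174 and 0.0458). CLDN7 within ICSI lost its call in 11 of 23 alternatives, and OCLN within ICSI in 11 of 22. The CLDN7 difference between origins lost its call in 5 of 22 alternatives and that of OCLN in 13 of 21. The mesenchymal transition list had medians of 0.88 within PG and -2.20 within ICSI.

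Of 19 imprinted genes measured 0 were called over the 8 arrays by limma, and 1 had an unadjusted p under 0.05. SNRPN, transcribed from the paternal allele, was 443 on MPH2 P4 and 161 to 679.6 on MPH1, and 20957 and 26541 on MES2 and MES3 P4 and 18588 on MES1 P12 (0.31 ± 0.518, log2, SE, adjusted p = 0.863). On both sides the PG signals were thus far below the ICSI signals. Parthenogenic cells carry no paternal genome. H19, a maternally expressed noncoding RNA, was 14625 on MPH2 P4 against 2429, 3432, 645 and 867 on MPH1 P7, P8, P9 and P11, and 429 and 698 on MES2 and MES3 P4 against 1862 on MES1 P12. Within PG H19 differed by 3.32 ± 0.713 (log2, SE, adjusted p = 0.0555), and another H19 probe set was called there (1.66, adjusted p = 0.0265). MEST, also paternally expressed, was 4035 against 2392 to 4769.5 within PG, which overlap, and 6653 and 6239 against 2158 within ICSI (0.83). The medians were 0.05 over 8 paternally and 0.20 over 11 maternally expressed genes. The 9 DNA methylation genes had a median of 0.06.

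The median difference of the genes on an autosome lay between -0.116, on chromosome 19, and 0.078, on chromosome 6, and that of 346 genes on the X chromosome was -0.045. Relative to the mean of each gene over the 8 arrays, the X-linked median was between 0.183 and 0.325 on all 5 PG arrays and between -0.461 and -0.347 on all 3 ICSI arrays, on both sides of the passage comparison.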

How the data were processed

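RNA of 8 ESC arrays and 2 fibroblast arrays was measured on Affymetrix Rhesus arrays. The deposited intensity values are MAS5 signals on a linear scale from an unstated MAS5 release, per the submitters' processing notes. The mean without the highest and lowest 2% of probe sets was 500 on every array, a scaling by the authors. Signals were taken as log2, and probe sets above the array median on at least 3 ESC arrays were kept, 28646 of 52865. Models were fitted with limma 3.58.1 in R 4.3.3 (lmFit and eBayes with an intensity trend), with the line as a random block (duplicateCorrelation), and were tested on simulated data. The model of both origins held origin and side, and the contrasts within and between origins came from a model of 4 group means. A result was called at a Benjamini-Hochberg adjusted p under 0.05 over all probe sets. For 10505 genes the brightest tested probe set with that symbol alone stood for the gene. Symbols came from the platform annotation, updated where possible, and chromosomes from the assembly T2T-MFA8v1.1, which placed 9555 genes. Signals not above the array median were set to it for bounds written as "at least". Calls and adjusted p-values of genes with such bounds come from the unraised signals. The median stands in for a detection limit, because detection calls were not used here.

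Genes were named by rule. The rule took the 12 genes higher and 12 lower with no overlap in either origin and smallest p, the 3 genes of each list with the smallest p, a fixed set that starts with POU5F1 and SOX2, and the 5 genes of smallest p in the test between origins. Other genes given were chosen after their values were seen. The members and lists were chosen with earlier results of these data known. Alternatives covered the block, the samples, origin, scaling, filter, variance model, contrast, probe sets, threshold, feeder level and arrays left out. Chromosome levels per array are relative to the mean of all 8 ESC arrays. The number of arrays limits the precision.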

Additional observations from a re-analysis of the deposited data

Results flagged for a closer look

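Among 139 values examined over the 4 MPH1 arrays, 6 had 1 array far from the other arrays, with a gap to the nearest of them, as a share of the whole range, above Dixon's critical value. Chance gives this in about 1 in 20 groups. The share was 0.858 for CA9 and 0.837 for SFRP4, both high on MPH1 P7. It was 0.88 for HOOK1, 0.891 for MAMU-E and 0.839 for SRXN1, an antioxidant sulfiredoxin, all low on MPH1 P11, and 0.881 for the mean of the endothelial list, high on MPH1 P8.

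The contrast of passage 4 with later passages differed between PG and ICSI (limma test of the difference, adjusted p under 0.05) in 32 of 101 genes examined, beside 181 of 10505 genes (1.72%) in all. Many of the 101 were examined because they led these contrasts or this test, so the share is no result. The PG contrast exceeded the ICSI contrast, in log2 units, by 8.247 in IFIT1, 7.043 in NR2F1, 6.378 in CHP2, 5.97 in EFEMP1, 5.542 in EPAS1 and 5.161 in RPL24. The excess was 4.77 in SEMA3C, 4.217 in PSMB8, 4.171 in HEY1, 3.929 in ZEB1, 3.63 in IFIT3, 3.597 in GATA3 and 3.27 in FIG4. It was 3.058 in FBN2, 2.885 in CCND1, 2.7 in ISG15, 2.684 in GGCT, 2.605 in TAP1, 1.728 in B2M and 1.727 in RRM2B. IFIT1 was under the array median on 2 passage 4 and 3 later arrays, IFIT3 on 2 and 2, and HEY1 on 1 later array, so their values are not exact. With signals raised to the median the IFIT1 difference between origins was 3.753, the IFIT3 difference between origins 3.354 and the HEY1 difference between origins 4.166. Raising signals to the median was chosen after seeing the data.

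The PG contrast was below the ICSI contrast in the other 12 genes. The log2 difference was -5.767 in ZFP42, -5.222 in GPR143, -5.175 in PLEK2, -4.859 in IZUMO2, -3.524 in GLOD4 and -3.412 in FAIM. It was -3.246 in CMTR2, -3.043 in ADH4, -2.825 in SMC1A, -2.614 in CLDN7, -2.109 in OCLN and -2.029 in CA9. ZFP42, GPR143, PLEK2 and IZUMO2 were under the array median on MES1 P12, and ADH4 on MPH2 P4, so these values are not exact either. With signals raised to the median the ZFP42 difference between origins was -5.43 and the IZUMO2 difference between origins -4.574, and within ICSI GPR143 was at least 1.145-fold and PLEK2 at least 3.51-fold higher at passage 4. ADH4 was at least 6.95-fold lower within PG. With the fibroblast and feeder level as a covariate 0 probe sets passed this test, while the log2 value was -3.276 for the GLOD4 difference between origins, -2.424 for the SMC1A difference between origins and 5.306 for the RPL24 difference between origins. It was 3.749 for the NR2F1 difference between origins.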

How the results depend on the processing

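Over 27 settings, of 3520 values of 142 gene results 3018 kept their direction and side of the threshold, 415 lost and 59 gained a call, and 28 reversed. Of 873 values of 35 list medians 122 moved by more than the SD of the list level over the 4 MPH1 arrays. Of the 35 medians 32 moved in this way at least once. The cause was not tested for any of them.

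Probe sets called over the 8 arrays, 2 in the chosen model, numbered 0 with each line averaged first, without the origin term or without a variance trend. They numbered 4 with all 10 arrays, 1 with the filter at the 75th percentile, 9 with the fibroblast and feeder covariate, and 0 to 539 with 1 array left out. Without MPH1 P11 and MES1 P12, a setting chosen after seeing the data that leaves no later ICSI array, 499 were called. With a gene's probe sets averaged 0 genes were called.

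Within PG the count of 504 became 240 without a block or with the description code as block, 4 with lines averaged, 923 with all 10 arrays, 77 without a variance trend, 0 with the covariate and 133 to 539 with 1 array left out. Within ICSI the count of 196 became 109 without a block, 101 with the code, 718 with 10 arrays, 467 with quantile normalization, 50 without a trend, 0 with the covariate, 454 with signals raised to the array median (also chosen after seeing the data) and 19 to 455 with 1 array left out. For the difference between origins 426 became 236, 135 with lines averaged, 233 with the code, 1006, 76, 0 and 746 under the same settings, and 49 to 627 with 1 array left out. The correlation of the PG and ICSI contrasts became -0.21 with the covariate.

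The reversed genes were not called in the chosen model. With 1 array left out the log2 differences ran from -3.887 to 0.811 for CER1, -2.768 to 0.209 for COL1A1, -0.429 to 0.489 for DNMT3B, -1.77 to 3.315 for H19, -0.403 to 3.768 for HEY1, -0.788 to 0.434 for NANOG and -0.308 to 0.23 for SOX2. Without MPH1 P11 and MES1 P12 the log2 differences were 0.0809 for B2M, 0.825 for COL1A1, -0.511 for DNMT3B, -0.0552 for MEST, 0.644 for NANOG and -0.0567 for SLC2A3. DNMT3B was -0.01185 without a block, -0.001637 with the code, -0.159 without origin, -4.8e-05 without a filter and -0.152 with the covariate, and turned without MPH1 P9, MES1 P12 or MES3 P4. NANOG was 0.274 on centred arrays and 0.123 with the covariate. SOX2 was 0.001164 with quantile normalization, 0.327 on centred arrays, 0.0248 with passage as a number and 0.118 with the mean of probe sets. The mean of probe sets gave -0.955 for NFKBIZ, and passage as a number -0.0414 for SNRPN. Leaving out MPH2 P4 turned SOX2, CER1, H19 and HEY1, and leaving out MES1 P12 turned NANOG and COL1A1.

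No paired analysis was possible because the replicate numbers come from accession order and no line was sampled on both sides. In signal over background, probe sets under the array median have only a bound.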
